A study of Mus musculus with 8 samples.

Results

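The genes described here are 47 developmental basic helix-loop-helix (bHLH) transcription factor genes, taken by name from a fixed list of proneural, Hes and Hey, Id, mesoderm and muscle, and other neural, pancreatic and blood factors, out of 21900 protein-coding genes in the RefSeq annotation. A gene was called marked in a library when a CUT&RUN peak overlapped it or lay within 2 kb of it, and replicated in a group when overlapping peaks of both libraries of that group formed a region there. CUT&RUN maps the genomic sites of a protein with an antibody that tethers a nuclease to chromatin, and the cut fragments are sequenced. The antibodies were against METTL14 and METTL3, the subunits of the RNA N6-methyladenosine methyltransferase, and METTL3 is the catalytic one.

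All 8 libraries came from C57BL/6 mouse embryonic stem cells kept in serum medium with LIF, a GSK3 inhibitor and a MEK inhibitor. METTL14 was mapped in cells labelled Mettl3 CKO and in their Mettl3 control, and METTL3 in cells labelled Mettl14 CKO and in their Mettl14 control, with 2 libraries in each of the 4 groups. The labels spell out neither CKO nor how deletion was induced, and nothing says that replicate libraries were made from different cultures, so a p-value here reflects library-to-library spread that may be technical. No library with a nonspecific antibody was analysed here, and peak positions do not check the genotype labels. METTL14 lists held 3922 and 1439 peaks in the Mettl3 CKO libraries and 3129 and 3546 in the control libraries. METTL3 lists were shorter, at 242 and 344 peaks in Mettl14 CKO and 353 and 341 in control. Read depth is unknown, a list gives positions without heights, and expression of these genes and the identity of the cells cannot be read from it.

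bHLH factors bind DNA as dimers, with a basic region that contacts E-box sequences and a helix-loop-helix that holds the partners together. Proneural factors such as the neurogenins and Atoh1 start neuronal differentiation, usually as dimers with broadly expressed E proteins. Most Hes and Hey proteins are repressors, many of them induced by Notch signalling, that hold such differentiation back. Id proteins lack the basic region and sequester E proteins away from DNA. In embryonic stem cells Id genes are known targets of BMP signalling, whereas most lineage-specific bHLH genes are known to be silent and covered by Polycomb until differentiation.

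The promoters overlapped by a METTL14 peak in the most libraries were those of Atoh1, Id3 and Hey2, and they are shown because they place the peaks against the start of each gene. Each runs from 250 bases before to 50 bases after an annotated transcription start in RefSeq for GRCm38.p6 (mm10), 5′ to 3′ on the strand of the gene, and capitals mark the bases that lay under a METTL14 peak of at least 1 library. The Atoh1 window is chr6:64728875-64729174 on the plus strand, the Id3 window chr4:136143572-136143871 on the plus strand and the Hey2 window chr10:30842734-30843033 on the minus strand.
Atoh1: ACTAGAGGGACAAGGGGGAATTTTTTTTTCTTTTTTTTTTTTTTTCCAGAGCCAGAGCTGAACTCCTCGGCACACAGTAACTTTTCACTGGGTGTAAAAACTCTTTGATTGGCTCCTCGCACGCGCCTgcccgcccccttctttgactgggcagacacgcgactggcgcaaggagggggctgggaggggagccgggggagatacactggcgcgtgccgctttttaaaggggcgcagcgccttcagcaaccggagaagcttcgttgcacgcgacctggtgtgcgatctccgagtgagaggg
Id3: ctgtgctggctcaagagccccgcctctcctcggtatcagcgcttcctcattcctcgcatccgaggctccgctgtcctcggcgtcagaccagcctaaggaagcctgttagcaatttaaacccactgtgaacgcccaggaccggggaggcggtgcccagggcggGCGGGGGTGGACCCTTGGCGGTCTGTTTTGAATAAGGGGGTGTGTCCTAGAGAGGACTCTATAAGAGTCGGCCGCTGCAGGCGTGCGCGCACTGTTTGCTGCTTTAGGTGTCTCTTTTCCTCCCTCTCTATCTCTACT
Hey2: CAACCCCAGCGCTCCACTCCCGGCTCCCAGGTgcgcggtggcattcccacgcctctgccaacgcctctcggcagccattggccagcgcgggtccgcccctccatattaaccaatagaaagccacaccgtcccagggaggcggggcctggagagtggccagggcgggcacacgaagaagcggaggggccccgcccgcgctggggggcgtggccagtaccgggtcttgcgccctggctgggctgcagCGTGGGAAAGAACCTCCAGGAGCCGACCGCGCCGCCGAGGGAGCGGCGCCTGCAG
At Atoh1 the capitals cover the 128 bases farthest from the start, called in 1 Mettl3 CKO library and both control libraries, and they are the part of a 276 bp site that falls in the window. Of these bases 96 lay under 1 peak, that of control replicate 1, 31 under 2 peaks and 1 under all 3. Over the whole site, most of which is upstream of the window, the 3 peaks shared 22 bases. At Id3 they cover 138 bases across the start itself, with 94 of them shared by Mettl3 CKO replicate 2 and control replicate 1. At Hey2 the 87 capital bases are 2 separate stretches, the upstream one from Mettl3 CKO replicate 1 and the one at the start from control replicate 1, so no base was called in more than 1 library.

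METTL14 peaks were found at 17 of the 47 bHLH genes in at least 1 of the 4 METTL14 libraries (36.2%, against 20.8% of all protein-coding genes), and most of these genes were marked in a single library. Of the 17, 9 were marked in 1 library (19.1% of members, against 10.8% of all genes), 4 in 2 (8.51%, against 4.59%) and 3 in 3 (6.38%, against 2.87%). Only Hes7 was marked in all 4 (2.13%, against 2.53%). Genes marked in 3 or more libraries were Hes7, Neurog2, Tal1 and Atoh1. No METTL3 library had a peak at any of the 47 genes (1.53% of all genes had one in some METTL3 library, and 0.151% in all 4).

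**Figure D1:**
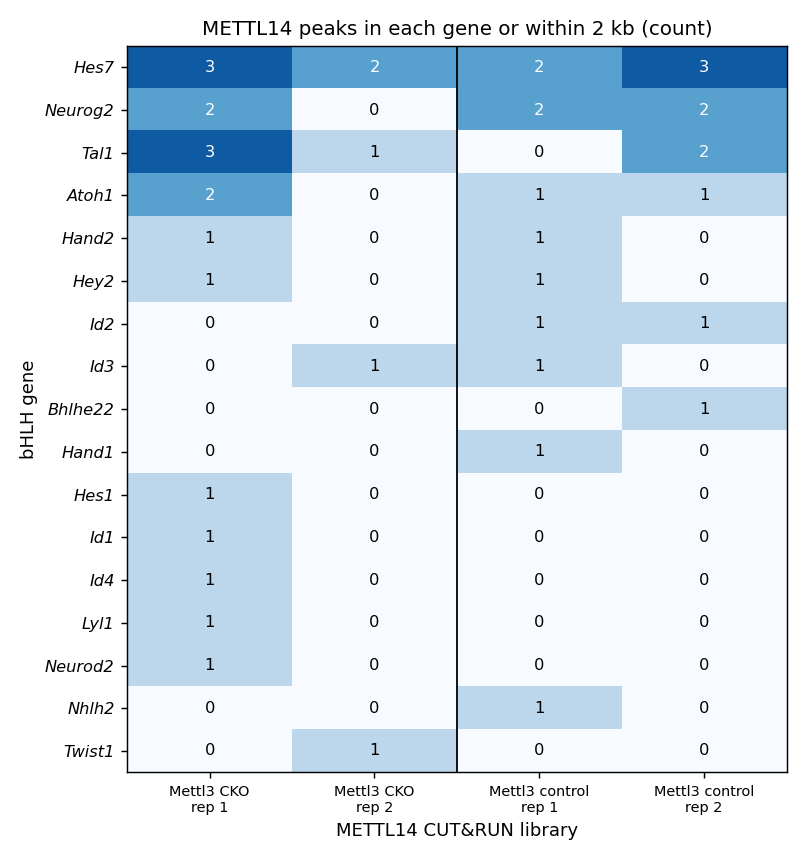
Number of METTL14 peaks in each gene or within 2 kb of it (cell values and shading) for the 17 bHLH genes with any peak, in rows, across the 2 Mettl3 CKO and 2 Mettl3 control libraries, in columns. Hes7 has peaks in all 4 columns, Neurog2, Tal1 and Atoh1 in 3, and 9 genes in a single column.

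Per library, 11 and 4 of the 47 genes were marked in the Mettl3 CKO libraries, against 9 and 6 in the control libraries. In Mettl3 CKO replicate 1 this was 23.4% of members (95% Wilson interval 13.6% to 37.2%), beside 12.9% of all protein-coding genes. In Mettl3 CKO replicate 2 it was 8.51% (3.36% to 19.9%), beside 4.91%. In control replicate 1 it was 19.1% (10.4% to 32.5%), beside 9.71%, and in control replicate 2 it was 12.8% (5.98% to 25.2%), beside 11.2%. The members' share was above that of all genes in each METTL14 library, by least in control replicate 2, and the interval held the share of all genes in Mettl3 CKO replicate 2 and control replicate 2. The intervals cover counting error only and treat genes as independent draws, and the members were chosen with earlier results of these data known. They are therefore no test of the members against all genes. The bHLH genes are short, with a median length of 2904 bp against 17146 bp for all protein-coding genes, so a member offers less sequence in which a peak can fall. Within 2 kb of a gene boundary only, which leaves out the depths of long genes, the shares were 23.4% and 8.51% of members in Mettl3 CKO (10.4% and 4.13% of all genes) and 19.1% and 12.8% in control (7.11% and 8.76% of all genes).

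**Figure D2:**
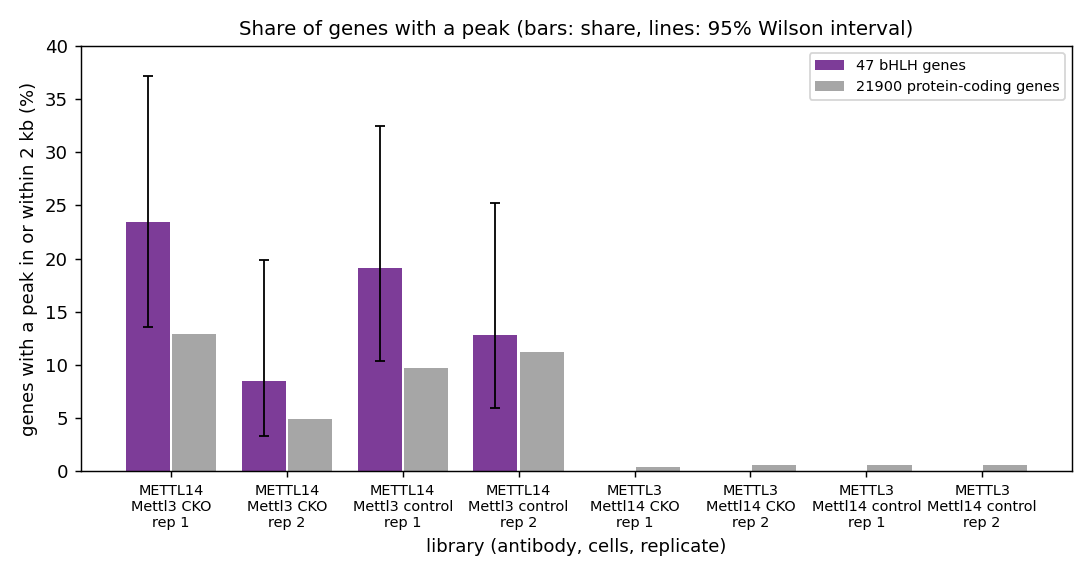
Share of the 47 bHLH genes (purple, with 95% Wilson intervals) and of all 21900 protein-coding genes (grey) that have a peak in the gene or within 2 kb, for each of the 8 libraries. In METTL14 libraries the members' share runs from 8.51% to 23.4% beside 4.91% to 12.9% of all genes, and no METTL3 library marks a member.

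Demanding that both libraries of a group agree left few genes. In Mettl3 CKO cells 2 members had a replicated METTL14 region, Hes7 and Tal1 (4.26%, Wilson interval 1.17% to 14.2%, against 3.15% of all genes). In control cells there were 3, namely Neurog2, Atoh1 and Hes7 (6.38%, 2.19% to 17.2%, against 3.82% of all genes). Only Hes7 was replicated in both groups (2.13%, against 1.78% of all genes). At the background shares 1.48 and 1.79 of 47 genes would be marked, in Mettl3 CKO and control cells in turn, so the replicated counts lie near the background and are no result about bHLH genes as a group. Id2 was marked in both control libraries, but at opposite sides of the gene, and so had no replicated region.

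The number of marked members did not separate Mettl3 CKO from control cells. It averaged 7.5 ± 4.95 in Mettl3 CKO and 7.5 ± 2.12 in control (SD, n = 2 each), a difference of 0 (two-sided exact permutation p = 1, where 4 libraries allow no p below 0.33). Mettl3 CKO replicate 2 had the shortest METTL14 list and the fewest marked members, whereas of the control libraries the longer list marked fewer. Places in a list are given in deposited order, and no source used here says what that order ranks by, so they show where a peak is listed and not how strong it is. With all 4 METTL14 lists shortened to their first 1439 peaks in that order, 6 and 4 members were marked in the Mettl3 CKO libraries and 7 and 4 in control (difference -0.5, exact permutation p = 1). At that length 4.63% and 4.91% of all genes were marked in Mettl3 CKO and 4.4% and 4.33% in control. Without Mettl3 CKO replicate 2 the difference was 3.5 and without Mettl3 CKO replicate 1 it was -3.5, so its sign rested on which of these libraries was kept. By gene, 6 members were marked in 1 Mettl3 CKO library and no control library (Neurod2, Hes1, Id1, Id4, Twist1 and Lyl1), as were 4.78% of all genes. In 1 control library and no Mettl3 CKO library 3 members were marked (Hand1, Bhlhe22 and Nhlh2, against 5.99% of all genes), and in both control libraries alone only Id2 (0.89% of all genes). Of these 10, only Id2 was marked in more than 1 library, and no member was marked in both Mettl3 CKO libraries and neither control library (0.466% of all genes).

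Hes7, a Notch-dependent repressor of the segmentation clock in the presomitic mesoderm, carried the most peaks of any member. It had 3 and 2 peaks in the Mettl3 CKO libraries and 2 and 3 in the control libraries. The site found in all 4 libraries spanned chromosome 11: 69124385 to 69124554, and its peak centres differed by at most 21 bp between libraries. It lay just beyond the high-coordinate end of the gene (69118906 to 69124054) and 4016 bp downstream of the annotated start, so it was at the 3′ side and not at the Hes7 promoter. The peaks of this site stood at 7.32% and 29.1% of the way down the deposited lists of the Mettl3 CKO libraries, and at 12.4% and 20.9% in control. A second site inside the gene (69123334 to 69123489) was called in Mettl3 CKO replicate 1 and control replicate 2, as was a site nearer to the neighbouring gene Aloxe3 (69124968 to 69125148).

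The Hes7 peaks lay among transfer RNA genes. The annotation places 5 tRNA genes in the Hes7 window, of which n-TRtct4, n-TLtag3, n-TQctg6 and n-TKctt27 stand between 69123482 and 69125248, the stretch that the peaks occupied. All 10 Hes7 peaks were within 200 bp of a tRNA gene, the farthest at 67 bp. None of the other 33 member peaks was, the nearest being 31429 bp away. Over the genome 34.7% and 17.7% of 430 annotated tRNA genes had a METTL14 peak within 200 bp in Mettl3 CKO and 22.8% and 25.8% in control, against 0.698% and 1.4% with METTL3 in Mettl14 CKO and 1.16% and 1.16% in its control. METTL3 lists were much shorter, at 242 to 353 peaks against 1439 to 3922, so these shares do not compare the antibodies. Of METTL14 peaks 3.42% and 4.1% in Mettl3 CKO and 2.72% and 2.68% in control lay within 200 bp of a tRNA gene. For METTL3 it was 0.826% and 1.45% in Mettl14 CKO and 0.567% and 0.587% in its control, from 2 to 5 peaks per library. From the positions, whether the signal belongs to Hes7 or to the tRNA genes cannot be told apart. Without Hes7, 1 replicated member is left in Mettl3 CKO cells and 2 in control cells.

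Neurog2, a proneural factor that drives neurogenesis in the dorsal forebrain and spinal cord, had 2 and 0 peaks in Mettl3 CKO and 2 and 2 in control (chromosome 3: 127632733 to 127635636). Its upstream site (127632538 to 127632692) was called in Mettl3 CKO replicate 1 and both control libraries. The peak centres were within 6 bp of each other and about 521 bp before the annotated start. The peaks ended 41 to 47 bp outside the low-coordinate boundary of the gene, which itself lies upstream of that start. The control libraries shared another site inside the gene (127634025 to 127634227), 990 bp past the start. The nearest peak of Mettl3 CKO replicate 1 was a separate one farther in (127634340 to 127634488). No peak was listed in Mettl3 CKO replicate 2, whose list ends at 1439 peaks. The Neurog2 peak listed earliest stood at place 1145 in Mettl3 CKO replicate 1, and at places 544 and 661 in control.

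Atoh1, the proneural factor of cerebellar granule cells and hair cells, had 2 and 0 peaks in Mettl3 CKO and 1 and 1 in control (chromosome 6: 64729125 to 64731245). The site called in 3 libraries (64728727 to 64729002) lies upstream of the start, with its 128 bases nearest the gene in capitals in the sequence above, and its peak centres were spread over 127 bp. The control peaks overlapped by less than 50% of their length, so with a 50% reciprocal overlap Atoh1 had no replicated region in control cells. The centres lay 324 bp before the start in Mettl3 CKO replicate 1, and 197 and 293 bp before it in control. Mettl3 CKO replicate 1 had a further peak 1035 bp before the start (64728016 to 64728164). The annotation places the lncRNA gene Gm35851 under part of this upstream stretch.

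Tal1, a master regulator of blood formation, had 3 and 1 peaks in Mettl3 CKO and 0 and 2 in control (chromosome 4: 115056426 to 115071755). The site shared by both Mettl3 CKO libraries and control replicate 2 (115057077 to 115057269) fell between the 2 annotated starts of the gene. A second site just inside the first start (115056471 to 115056642) was called in Mettl3 CKO replicate 1 and control replicate 2, where it was at place 254, the earliest place of any member in any list. The remaining peak of Mettl3 CKO replicate 1 (115058511 to 115058659) had its centre in the lncRNA gene Gm33786. That lncRNA gene lay 427 to 471 bp from the peak centres of the site in both Mettl3 CKO libraries. Control replicate 1 had no peak at Tal1, although its list of 3129 peaks was longer than that of Mettl3 CKO replicate 2, which had 1. Lyl1, the closest relative of Tal1, had 1 peak, in Mettl3 CKO replicate 1, across its 3′ end and with its centre in the neighbouring gene Nfix.

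The Id genes were each marked, but thinly. Id2 had 0 and 0 peaks in Mettl3 CKO and 1 and 1 in control, Id3 had 0 and 1 in Mettl3 CKO and 1 and 0 in control, and Id1 and Id4 each had 1 and 0 in Mettl3 CKO and 0 and 0 in control. The Id3 site (chromosome 4: 136143734 to 136143926) was centred 8 bp past the start. At Id4 the peak centre was 164 bp before the start, and at Id2 that of control replicate 1 was 236 bp before it, while the peak of control replicate 2 lay beyond the 3′ end. The centre of the Id4 peak also lay in the lncRNA gene A330033J07Rik. The Id1 peak stood at 98.3% of the list of Mettl3 CKO replicate 1, close to its last entry. All 4 Id genes were thus marked in some library (20.8% of all genes were), with no Id gene marked in the same place by both libraries of a group.

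Of the 11 proneural genes 3 were marked in any METTL14 library, where the share of all genes, 20.8%, would give 2.28. Besides Neurog2 and Atoh1 this was Neurod2, a factor of maturing neurons, with 1 peak inside the gene in Mettl3 CKO replicate 1. The other 8 (Neurog1, Neurog3, Neurod1, Neurod4, Neurod6, Atoh7, Atoh8 and Ascl2) had none. Of the 9 Hes and Hey genes 3 were marked, where the share of all genes would give 1.87. Hes1, the Notch target that oscillates in neural progenitors, had 1 peak 246 bp outside its low-coordinate boundary in Mettl3 CKO replicate 1. Hey2, a Notch target of heart and vessels, had 1 peak in Mettl3 CKO replicate 1 and 1 in control replicate 1 at different places around its start. Hes2, Hes3, Hes5, Hes6, Hey1 and Heyl had none.

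The mesoderm and muscle class was marked at 3 of 13 genes, where the share of all genes, 20.8%, would give 2.7. Hand2, needed for the heart and limb, had peaks at its start in Mettl3 CKO replicate 1 and control replicate 1 that overlapped (chromosome 8: 57320957 to 57321182), and the lncRNA gene Hand2os1 lay 172 and 249 bp from their centres. Hand1, a factor of trophoblast and heart, had 1 peak, in control replicate 1, and Twist1, a factor of mesenchyme and neural crest, had 1, in Mettl3 CKO replicate 2. The muscle determination genes Myod1, Myf5 and Myf6 had none, nor had Msc, Tcf15, Tcf21, Mesp1, Mesp2, Scx or Twist2. Of the 10 other neural, pancreatic and blood genes 4 were marked, where that share would give 2.08. They were Tal1, Lyl1, and Bhlhe22 and Nhlh2 with 1 control peak each. Olig1, Olig2, Olig3, Bhlhe23, Ptf1a and Nhlh1 had none.

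**Figure D3:**
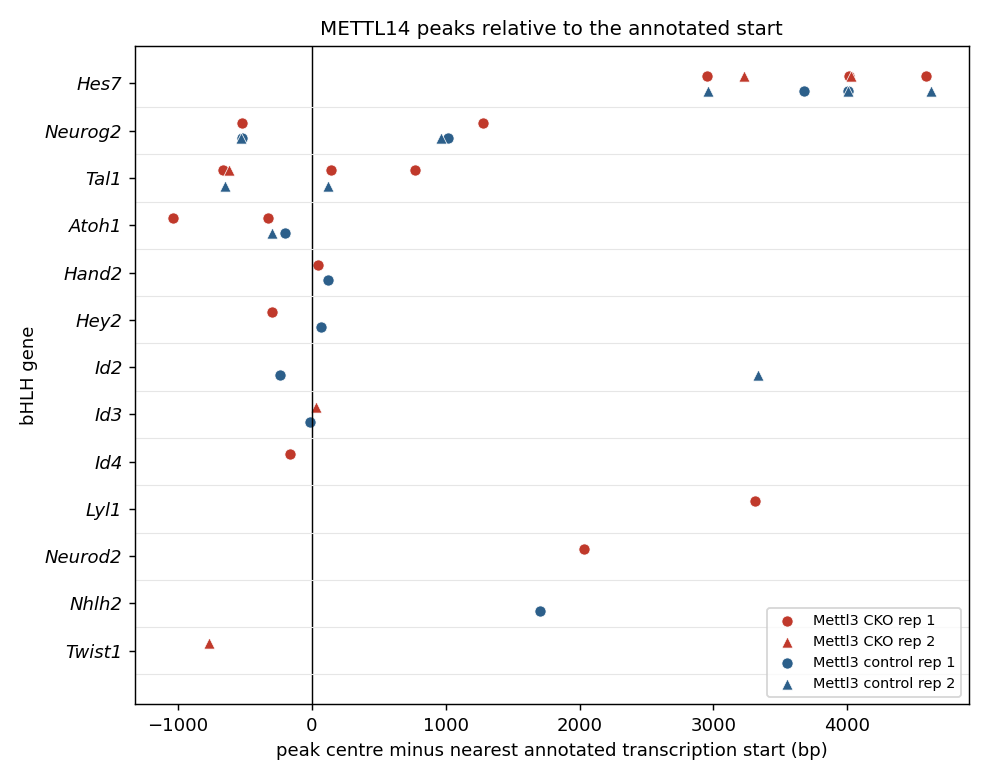
Distance from the nearest annotated transcription start to the centre of each METTL14 peak in bp (negative values are upstream), for the 13 marked genes with an annotated start, with Mettl3 CKO libraries in red above Mettl3 control libraries in blue. Hes7 peaks gather about 3 to 5 kb downstream, Id3 and Hand2 peaks at the start, and those of Hey2 and Neurog2 on both sides of it.

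Over all members there were 43 METTL14 peaks. Of these 16 lay inside a member, 6 across a boundary and 21 outside but within 2 kb. Of the 39 peaks at genes with a start in the promoter table, 13 were centred within 500 bp of a start and 22 within 1000 bp. Peaks of the 4 libraries merged into 28 sites at members. A single library called 18 of them (64.3%), and 9 (32.1%) were called in both a Mettl3 CKO and a control library. At all protein-coding genes 69.4% of 5666 sites were called in 1 library and 25.6% in both groups.

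The 30 unmarked genes had by definition no METTL14 peak within 2 kb. Their nearest peak in any of the 4 libraries was at a median of 125552 bp, and 2 of them had one within 10 kb, Neurog1 at 7183 bp and Olig3 at 7346 bp. Neurod1 was the most remote, at 991734 bp. The marked member with the most distant nearest peak was Id1, at 1109 bp, so no member lay between that distance and 7183 bp. Over all 47 members the median distance to the nearest METTL14 peak was 46626 bp, against 66833 bp for all protein-coding genes. A METTL14 peak lay within 10 kb of 40.4% of members, against 26.7% of all protein-coding genes.

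With METTL3, 0 of 47 members were marked in each of the Mettl14 CKO libraries (0.393% and 0.584% of all genes) and 0 of 47 in each control library (0.635% and 0.566%). Replicated METTL3 regions likewise marked no member in Mettl14 CKO (0.164% of all genes) or control (0.151%). At each of these shares less than 1 member in 47 would be marked, so a count of 0 is near the background. The difference between Mettl14 CKO and control was 0 (exact permutation p = 1). The METTL3 peak nearest to any member was 73714 bp from Lyl1. In the control lines the METTL14 lists marked 7.5 ± 2.12 members and the METTL3 lists 0 ± 0 (SD, n = 2 each), a difference of 7.5 (two-sided exact permutation p = 0.333, the smallest that 4 libraries allow). Antibody and cell line changed together in this contrast. With all 8 lists shortened to 242 peaks no list marked a member and the difference was 0. At that length the METTL14 control lists marked 0.306% and 0.32% of all genes and the METTL3 control lists 0.329% and 0.361%, so fewer than 1 of 47 members would be marked with either antibody and the value does not bear on the contrast. At 353 peaks, the length of the longest METTL3 list, Mettl3 CKO replicate 1 and control replicate 2 each marked 1 member with METTL14, and the other METTL14 libraries none. The METTL14 lists then marked 0.776% and 0.822% of all genes in Mettl3 CKO and 0.603% and 0.58% in control. These shares again give fewer than 1 of 47 members, so the counts are near the background.

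**Figure D4:**
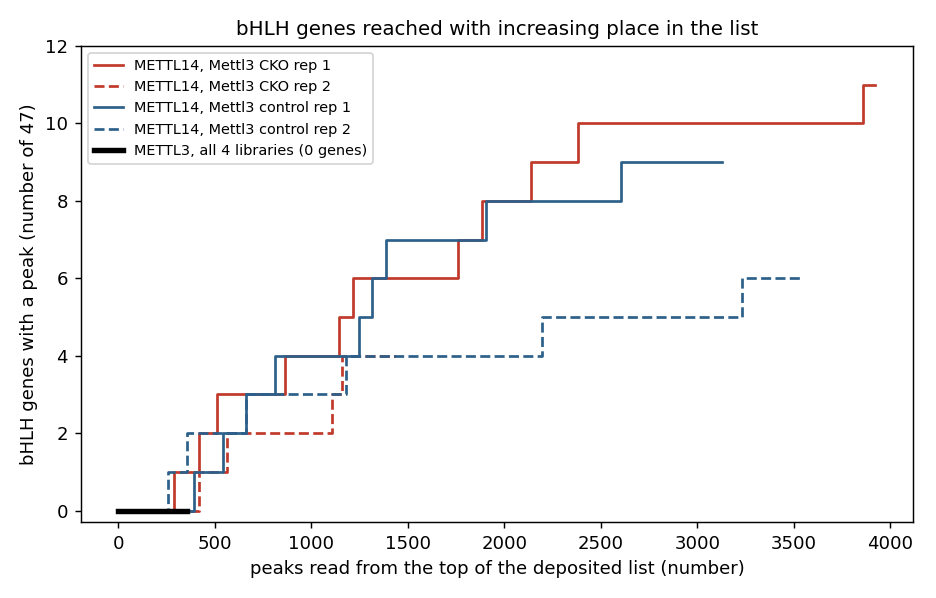
Number of the 47 bHLH genes with a peak (vertical axis) as peaks are read from the top of each deposited list (horizontal axis), for the 4 METTL14 libraries, with the 4 METTL3 libraries as the black bar at 0. The lines start to rise only after 242 peaks, and at 1439 peaks they stand at 6 and 4 genes in Mettl3 CKO and 7 and 4 in control. At 1439 peaks 4.63% and 4.91% of all genes were marked in Mettl3 CKO and 4.4% and 4.33% in control.

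Other bHLH genes and genes of the Notch pathway were examined for comparison, beside the 20.8% of all protein-coding genes that had a METTL14 peak in any library. Of the E proteins, the common dimer partners, Tcf3 had 1 peak in each of the 4 METTL14 libraries and a replicated region in both groups, Tcf4 had a peak in control replicate 1 only and Tcf12 had none. Of 16 other bHLH genes, listed as tissue-restricted, 4 were marked in any METTL14 library (25.0%), none with a replicated region. Of 40 further bHLH genes, listed as broadly expressed, 22 were marked (55.0%), but their median length was 44080 bp. Expression was not measured, and this last list also holds Sim1, Sim2 and Npas3, so the shares do not compare broad with restricted expression. In the last list, replicated regions were found in Mettl3 CKO at Srebf2 and Sim1 (3.15% of all genes had one). In control they were found at Srebf2, Mnt, Sim2 and Npas3 (3.82% of all genes). These names do not separate the groups, as Srebf2, Sim1 and Sim2 were marked in all 4 METTL14 libraries. Mnt and Npas3 also had peaks in Mettl3 CKO replicate 1. Srebf2 regulates cholesterol synthesis, Mnt antagonises Myc, and Sim1, Sim2 and Npas3 are regulators of neural development. Of 25 Notch pathway genes 9 were marked (36.0%, median length 35070 bp), the ligand genes Dll1, Dll4 and Jag1 and the receptor genes Notch1 and Notch4 among them. Maml3, a Notch coactivator, had replicated regions in both groups, and Rbpj, the DNA-binding partner of Notch, in control only. Rbpj also had 1 peak in Mettl3 CKO replicate 1. None of the genes in these 4 lists had a METTL3 peak in any library, and the lists were not tested against each other.

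Promoter sequence of marked and unmarked members was compared as a description. It was matched by symbol for 33 of the 47 genes, 13 marked and 20 unmarked. The median GC content was 60.0% in marked and 61.8% in unmarked members, against 56.3% in 17492 protein-coding genes. The median ratio of observed to expected CpG was 0.704 in marked and 0.539 in unmarked members, against 0.576. The ratios overlapped widely, from 0.143 to 0.988 in marked and from 0.084 to 1.04 in unmarked members. An E-box (CANNTG, the same on both strands) was present in 8 of 13 marked promoters (61.5%) and 14 of 20 unmarked ones (70.0%), against 68.8% of all promoters. The N-box CACNAG, bound by Hes proteins, was present on either strand in 6 of 13 marked (46.2%) and 7 of 20 unmarked promoters (35.0%), against 41.8%. The word TGGGAA, which lies within the known Rbpj site, was present on either strand in 6 of 13 marked (46.2%) and 7 of 20 unmarked promoters (35.0%), against 24.5%. Of the promoters shown, Atoh1 and Id3 held no E-box, and Hey2 held 1, CAGGTG, starting 223 bases before the start. These are matches of letters in a short window and were not tested.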

How the data were processed

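Peak positions of 8 CUT&RUN libraries were used as deposited by the authors, with 1 list per library. The score deposited by the authors was 1 for every peak, and peaks of a METTL14 list were 149 bp wide but for 1 peak in each of 2 lists. METTL3 peaks were wider, at 267 and 245 bp in the Mettl14 CKO lists and 285 and 277 bp in the Mettl14 control lists. Per the submitters' processing notes, CASAVA, Trimmomatic 0.38, Bowtie2 2.4.1, SAMtools and HOMER were used, with mm10. The sources used here give neither the peak threshold nor any background library nor the depth. Over all protein-coding genes, a longer list of an antibody marked more genes. Starts were made 1-based and matched to the GRCm38.p6 RefSeq gene table (Python 3.11.15, pandas 2.3.3). Strand came from the RefSeq promoter table (33 of 47 members). Overlap meant at least 1 bp. Promoter properties used the first start listed per gene. Differences between groups were tested by exact permutation of library labels, with library numbers unpaired. The overlap code was tested on simulated data.

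The members and gene lists were chosen with earlier results of these data known. Every member with a replicated region, with METTL14 peaks in 3 or more libraries or with any METTL3 peak was described in full, the rest by their counts, and promoters were chosen by the number of METTL14 libraries that overlap them. Alternatives covered the window, the overlap rule, list length and left-out libraries.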

Additional observations from a re-analysis of the deposited data

How the results depend on the processing

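Group means of marked members and counts of replicated members kept within 1.5 times of the reported value with windows of 1 and 5 kb, with gene boundaries only, with peak centres, with METTL14 or METTL3 lists at equal length, without peaks of the other antibody, with 50% reciprocal overlap and with a peak of each library anywhere in the window. Single libraries moved more, Mettl3 CKO replicate 1 having 6 marked members at equal length in place of 11. The genes also shifted: Atoh1 was no longer replicated in control with 50% reciprocal overlap, Id2 became so with a peak anywhere in the window, and Hand2 in Mettl3 CKO at 5 kb. Group means and counts also kept within 1.5 times, in an alternative chosen after seeing the data, when a peak counted only for the nearest protein-coding gene. With gene bodies only, replicated METTL14 members numbered 1 in Mettl3 CKO (Tal1), 1 in control (Neurog2) and 0 in both. The replicated sites of Hes7 and Atoh1 lie outside the genes. Hes7 still had a peak overlapping the gene in 4 of 4 METTL14 libraries, but not all at the same place. In control replicate 1 that peak (69124054 to 69124202) reached only the last base of the gene. With all 8 lists at 242 peaks the difference between METTL14 and METTL3 in the control lines was 0, with 0.306% to 0.361% of all genes marked, too few for any member to be likely. Using 1 library in place of both, members marked numbered 4 to 11 in Mettl3 CKO and 6 to 9 in control, and members marked in both groups 1 to 3. The difference in marked members between Mettl3 CKO and control ran from -3.5 to 3.5 when each library was left out, and that between METTL14 and METTL3 from 6 to 9. With the replicate block, libraries paired by number, the differences were 0 for METTL14 (exact permutation p = 1), 0 for METTL3 (p = 1) and 7.5 between antibodies (p = 0.5, the smallest that 2 pairs allow). No label says that the numbers pair libraries, so they were not taken as pairs. Deviations of same-numbered libraries had a correlation over 21900 genes of -0.058 for METTL14 and -0.074 for METTL3. With 2 libraries per group, these values cannot decide whether libraries were paired. Depth is unknown, so a gene without a peak cannot be called unbound.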
